A study of Mus musculus with 4 samples.

Results

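The p21-activated kinase (PAK) pathway was described in 10 genes, Rac1, Rac2, Pak1, Pak2, Pak4, Nck1, Nck2, Limk1, Limk2 and Cfl1, which were taken by name from a table of 34866 genes. All 10 were found in the table. PAKs are serine/threonine kinases. Those of group I, here Pak1 and Pak2, are switched on by binding the GTP-loaded form of the small GTPases Rac and Cdc42. PAKs phosphorylate LIM kinases, which in turn phosphorylate cofilin and thereby stop it from severing actin filaments. NCK adaptors bring PAKs to phosphorylated receptors at the membrane. In B lymphocytes this pathway is known for the remodeling of cortical actin during antigen receptor signaling, cell spreading and migration.

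The 4 RNA libraries came from 2 λ-MYC Tom+/ki mice with a lymphoma (tumors #1 and #2), whose B220+ IgM+ spleen cells had been sorted into a Tom+ and a Tom- population. Both mice carried the λ-MYC transgene, a human MYC gene under the control of Ig λ light chain regulatory sequences, together with 1 AicdaCre allele and 1 R26tdTom allele. In these animals Cre is made where AID is expressed and switches on Tomato (Tom) for good, so that Tom+ cells have expressed AID at some time and Tom- cells carry no such mark. The animals were analyzed when visibly ill, at an age not given in the sources used here, and no mouse without the transgene was sequenced. Because each tumor is 1 mouse, a tumor and a mouse cannot be told apart. Values are given as TPM, transcript abundances that are corrected for transcript length and scaled to a sum of 1000000 in each library. They can be compared between genes, but the sequencing depth cannot be read from them and is unknown, and no counting error can be given.

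The B cell identity of the sorted cells was checked first. All 8 B cell markers were found in each library, with a summed level between 2226 and 5635 TPM, Ighm between 1255 and 3652 TPM and Ptprc, which encodes B220, between 47.8 and 90.6 TPM. The summed level of 9 T cell markers was between 6.50 and 21.1 TPM, that of 7 macrophage or monocyte markers at most 1.64 TPM, and that of 7 neutrophil markers at most 5.64 TPM. Sums over 6 erythroid, 7 stromal or endothelial, 5 platelet and 5 NK cell markers were at most 21.5, 51.8, 2.35 and 0.978 TPM. Immunoglobulin genes took between 5.35% and 9.76% of TPM, mitochondrial genes between 6.61% and 15.6%, and pseudogenes between 23.4% and 31.3%.

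Within the pathway, expression was dominated by 1 GTPase and by cofilin. Cfl1, with a mean of 784 TPM, and Rac2, with 736 TPM, had levels above 98.3% and 98.2% of the 11339 genes tested. Rac1 followed at 142 TPM, Limk2 at 46.4 TPM, Pak2 at 26.9 TPM and Nck1 at 10.7 TPM. Limk1 (5.75 TPM), Nck2 (2.57 TPM), Pak4 (1.10 TPM) and Pak1 (0.285 TPM) were at the bottom of the order. The 4 values of Cfl1 and Rac2 overlapped, and so did those of each pair of neighbors from Nck1 downward, so that their order is not settled by these ranges. Compared within each library, Pak4 was always above Pak1, whereas the order of the other overlapping neighbors changed between libraries. The ranges of Rac2, Rac1, Limk2, Pak2 and Nck1 did not overlap with each other.

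**Figure D1:**
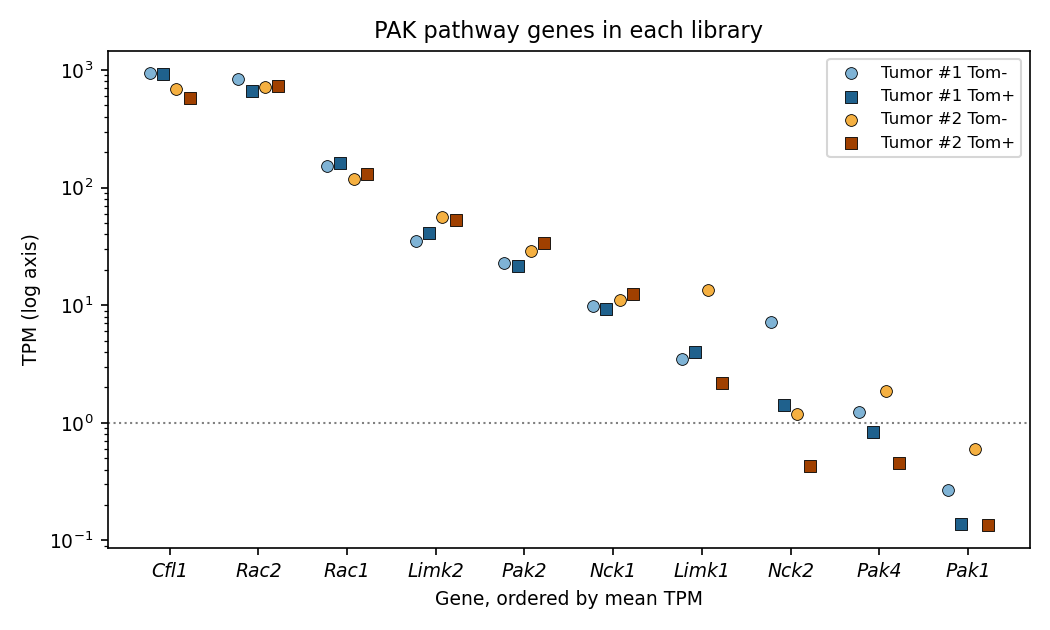
TPM of the 10 PAK pathway genes on a log axis, ordered by their mean, with 1 point per library (circles, Tom- cells; squares, Tom+ cells; blue, tumor #1; orange, tumor #2). The dotted line marks 1 TPM. Points of a gene lie close together from Cfl1 to Nck1 and spread widely for Limk1, Nck2, Pak4 and Pak1, where Limk1 is high in Tom- cells of tumor #2 (13.3 TPM) and Nck2 in Tom- cells of tumor #1 (7.23 TPM).

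To find out whether the pathway differed with AID history, each Tom+ sample was set against the Tom- sample from its own mouse. Differences are given on the log2(TPM + 1) scale, where the added 1 makes the change of a weakly expressed gene look smaller than it is, and were tested with limma, pairing the samples of a mouse, over the 11339 genes that reached 1 TPM in at least 2 libraries. In this test 0% of all genes had a Benjamini-Hochberg adjusted p-value below 0.05, and 4.67% (530 genes) had an unadjusted p-value below 0.05. Of the 10 pathway genes 9 were tested, of which 0 passed at the adjusted and 0 at the unadjusted level, and Pak1 was too low to be tested. Pak4 reached 1 TPM in the 2 Tom- libraries only, so that it entered the test through the group in which it was higher. Its direction was fixed by this. Among the 9 tested genes Nck2, Pak4 and Cfl1 were lower in Tom+ cells of both tumors, where 29.5% of all genes were lower in both. Rac1 was higher in both, where 21.6% of all genes were higher in both. The other 5 went in opposite directions in the tumors, as 47.3% of all genes did. The count of 3 lower and 1 higher became 2 and 2 after rescaling over protein-coding genes outside the immunoglobulin and mitochondrial genes, where all genes were at 23.5% lower and 27.3% higher in both tumors. Trimmed-mean scaling, quantile normalization and the sum with annotated copies each gave 2 and 1. All genes were then at 25.4% lower and 25.5% higher (trimmed-mean), 28.25% and 22.79% (quantile) and 29.5% and 21.6% (copies). In sorted bulk populations, fewer cells of a type and less RNA per cell cannot be told apart.

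**Figure D2:**
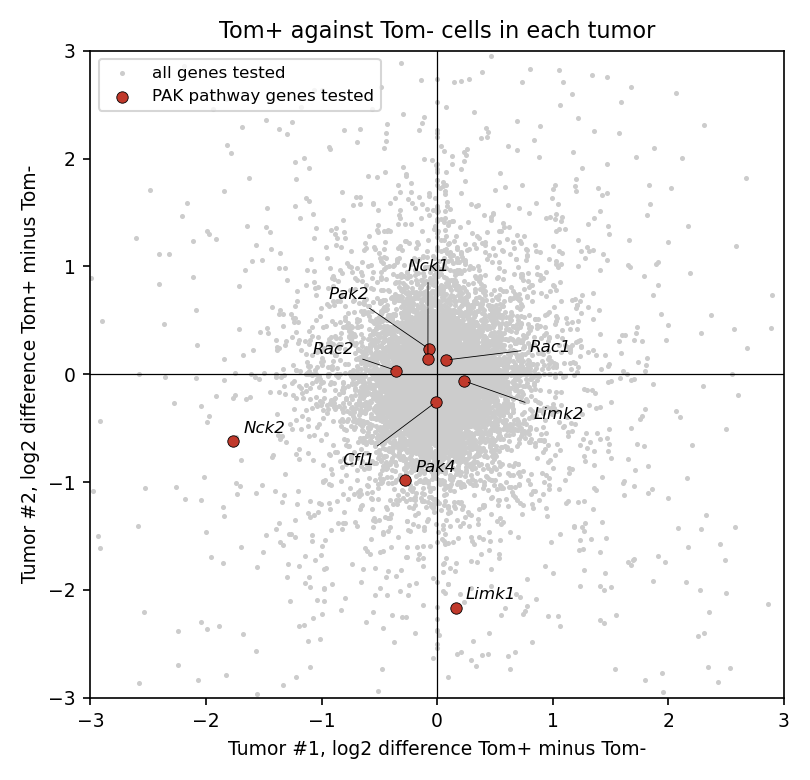
Difference between Tom+ and Tom- cells on the log2(TPM + 1) scale in tumor #1 (x axis) and tumor #2 (y axis) for the 9 PAK pathway genes tested (red) and all 11339 genes tested (grey, with 183 genes outside the axes). Most pathway genes lie in the central cloud, while Nck2 lies to the left (-1.77 in tumor #1) and Limk1 at the bottom (-2.16 in tumor #2).

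The GTPases at the head of the pathway differed little between the populations. Rac1 (ENSMUSG00000001847, chr5:143503634-143528036 of GRCm38, minus strand), which is expressed in most cell types, measured 154 (Tom-) and 163 TPM (Tom+) in tumor #1, against 119 and 131 TPM in tumor #2. It was slightly higher in Tom+ cells of both mice, with a log2 fold change of 0.10 (SE 0.12, 95% interval -0.27 to 0.48, adjusted p = 0.944 from limma). Rac2 (ENSMUSG00000033220, chr15:78559167-78572783, minus strand), the form restricted to blood cells, measured 840 and 658 TPM in tumor #1, against 715 and 733 TPM in tumor #2. Tom+ cells were thus lower in tumor #1 and level in tumor #2, and the log2 fold change was -0.16 (SE 0.15, 95% interval -0.63 to 0.31, adjusted p = 0.936). These intervals include moderate changes in either direction. Rac2 made up 84.4% and 80.1% of the summed TPM of Rac1, Rac2 and Rac3 in tumor #1 (Tom- first) and 85.6% and 84.8% in tumor #2. Rac3 contributed at most 0.0836%.

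Of the 6 Pak genes, Pak2 carried nearly all of the signal. Pak2 (ENSMUSG00000022781, chr16:32016290-32079342, minus strand), a broadly expressed group I kinase, measured 22.9 (Tom-) and 21.8 TPM (Tom+) in tumor #1, against 28.7 and 34.0 TPM in tumor #2. The groups overlapped and the log2 fold change was 0.082 (SE 0.17, 95% interval -0.45 to 0.62, adjusted p = 0.966 from limma). Pak4 (ENSMUSG00000030602, chr7:28558819-28598185, minus strand), a group II kinase, measured 1.23 and 0.832 TPM in tumor #1, against 1.88 and 0.458 TPM in tumor #2. Both Tom+ values lay below both Tom- values, which was fixed once Pak4 had entered the test through the Tom- libraries alone. Over all genes tested this order held for 9.86% (the reverse, found for none of the 9 pathway genes, for 6.42%). The log2 fold change of Pak4 was -0.63 (SE 0.31, adjusted p = 0.936 from limma). Pak1 (ENSMUSG00000030774, chr7:97788541-97912381, plus strand), the other group I kinase of the set, showed the same order at a level below the limit for testing, with 0.268 and 0.138 TPM in tumor #1, against 0.597 and 0.135 TPM in tumor #2. Pak3 and Pak6 did not exceed 0.15% of the summed Pak TPM in any library, and Pak5 was listed at 0 in all 4. Pak2 therefore made up 93.9% and 95.7% of the sum in tumor #1 (Tom- first) and 91.9% and 98.3% in tumor #2, and the share of Pak4 was 5.02% and 3.66% in tumor #1 and 6.02% and 1.32% in tumor #2.

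Of the adaptors, Nck2 had the largest log2 fold change of the 9 tested genes, and Nck1 was nearly level. Both encode adaptors built of SH3 domains and an SH2 domain, which bind PAK and WASP family proteins on one side and phosphotyrosine on the other. Nck1 (ENSMUSG00000032475, chr9:100492293-100546134, minus strand) measured 9.89 (Tom-) and 9.31 TPM (Tom+) in tumor #1, against 11.1 and 12.4 TPM in tumor #2, with a log2 fold change of 0.033 (SE 0.19, 95% interval -0.55 to 0.61, adjusted p = 0.991 from limma). Nck2 (ENSMUSG00000066877, chr1:43444579-43570515, plus strand) measured 7.23 and 1.42 TPM in tumor #1, against 1.19 and 0.430 TPM in tumor #2. Tom+ cells of both mice had less Nck2 than Tom- cells, at 0.197 and 0.360 of the Tom- level. On the log2(TPM + 1) scale tumor #1 was past 2-fold, as 3.03% of all genes were in that direction. The Tom- value of tumor #2 lay below the Tom+ value of tumor #1, so that the groups overlapped. The log2 fold change was -1.19 (SE 0.39, 95% interval -2.40 to 0.014, unadjusted p = 0.0515, adjusted p = 0.936), and 3.11% of all genes had a change at least as large in either direction. The unadjusted p-value for Nck2 ranged from 0.0239 to 0.217 over the settings tried, and adjusted values were at least 0.927. The ratio of Nck1 to Nck2 rested on Nck2 and was 1.37 (Tom-) and 6.54 (Tom+) in tumor #1 and 9.28 and 28.7 in tumor #2. Nck2 thus made up 42.2% of the summed Nck TPM in Tom- cells of tumor #1 and between 3.36% and 13.3% in the other 3 libraries.

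**Figure D3:**
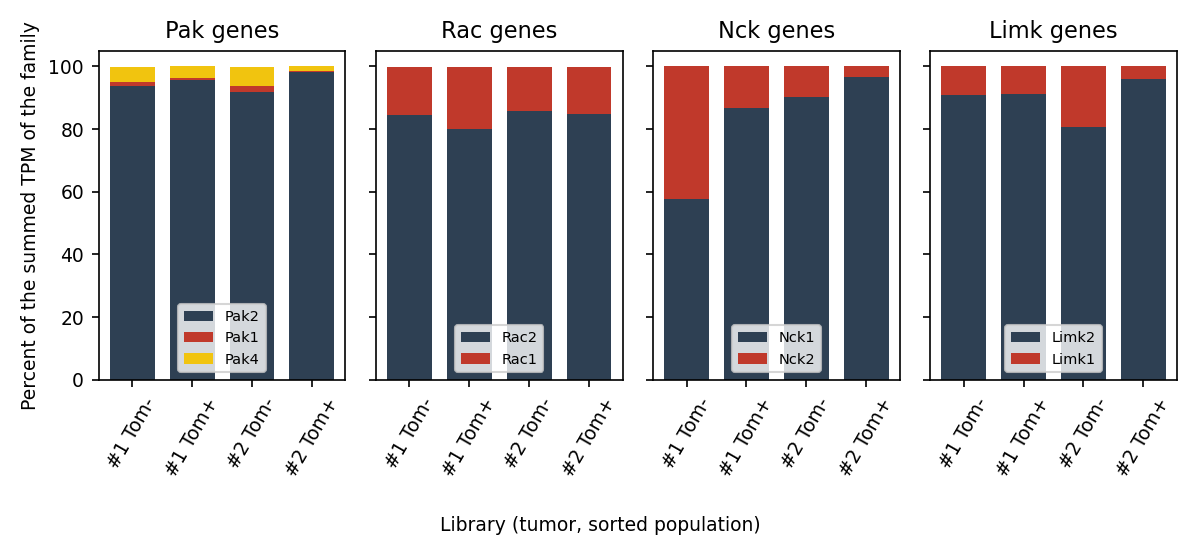
Share of each gene in the summed TPM of its family (percent, y axis) in the 4 libraries (x axis) for Pak, Rac, Nck and Limk genes, with genes under 0.2% in all libraries left out. Pak2, Rac2, Nck1 and Limk2 take the largest share in all 4 libraries, and the Nck2 share of 42.2% in Tom- cells of tumor #1 stands apart from the other Nck bars.

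The promoters of the Nck and Limk pairs are shown as a description. The pairs were picked because Nck2 and Limk1 had the largest changes, each at an adjusted p of 0.936 from limma. A link between promoter sequence and expression was not tested. The sequences are the 250 bases before the RefSeq start (GRCm38.p6) nearest to the annotated gene start, in the direction of transcription, with capitals marking the GC box (GGGCGG) and the CCAAT box (CCAAT) on either strand. The Nck promoters lie at chr1:43445501-43445750 (Nck2, plus strand, 1172 bases inside the annotated gene) and chr9:100546135-100546384 (Nck1, minus strand).
Nck2: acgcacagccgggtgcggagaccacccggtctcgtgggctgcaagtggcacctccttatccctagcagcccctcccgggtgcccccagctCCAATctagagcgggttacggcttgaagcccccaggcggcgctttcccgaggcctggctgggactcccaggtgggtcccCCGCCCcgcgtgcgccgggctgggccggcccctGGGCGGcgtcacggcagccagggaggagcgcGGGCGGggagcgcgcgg
Nck1: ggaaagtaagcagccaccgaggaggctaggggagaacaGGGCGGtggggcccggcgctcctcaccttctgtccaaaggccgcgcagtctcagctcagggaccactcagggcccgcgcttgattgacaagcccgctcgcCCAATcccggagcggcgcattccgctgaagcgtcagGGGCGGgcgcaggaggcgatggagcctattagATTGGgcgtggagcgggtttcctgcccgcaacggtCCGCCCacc
Both windows held 3 GC boxes, and Nck2 held 1 and Nck1 2 CCAAT boxes, with a GC content of 75.2% and 67.6%. Of 32851 promoter windows of the same length, 32.7% held a GC box and 33.8% a CCAAT box. The E-box CACGTG, the sequence bound by MYC with MAX, was in neither Nck window, nor was TATAAA. It was found in 6.02% of all windows and in 1 of the 7 pathway genes with a window in the table, Pak1, where it occurred 1 time. The CArG box, the site of the actin-linked factor SRF, was in none of the 7 and in 1.47% of all windows.

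Of the LIM kinases, which act between PAK and cofilin, Limk1 varied more between libraries than Limk2. Limk2 (ENSMUSG00000020451, chr11:3344256-3409189, minus strand) measured 35.0 (Tom-) and 41.4 TPM (Tom+) in tumor #1, against 55.7 and 53.3 TPM in tumor #2, with a log2 fold change of 0.087 (SE 0.16, 95% interval -0.41 to 0.58, adjusted p = 0.962 from limma). Limk1 (ENSMUSG00000029674, chr5:134656039-134688598, minus strand) measured 3.47 and 3.99 TPM in tumor #1, against 13.3 and 2.20 TPM in tumor #2. A single library, Tom- cells of tumor #2, was high, and the other 3 were within a narrow range. On the log2 scale Tom+ minus Tom- was 0.16 in tumor #1 and -2.16 in tumor #2, which gave a mean of -1.002 with a wide error (SE 0.68, 95% interval -3.09 to 1.08, adjusted p = 0.936). A difference between the tumors at least as large as that of Limk1 was found for 3.18% of all genes tested, and 5.05% of all genes were more than 2-fold lower in Tom+ cells of tumor #2. The same library held the highest summed level of the 7 neutrophil markers, 5.64 TPM against 0.239 (Tom-) and 0.0628 TPM (Tom+) for tumor #1 and 0.102 TPM for the Tom+ sample of tumor #2, from S100a8 (3.003 TPM), S100a9 (2.41 TPM), Mpo and Ngp, while Ly6g, Elane and Camp were listed at 0 in all libraries. Its sums of T cell (21.1 TPM), macrophage or monocyte (1.64 TPM) and stromal or endothelial markers (51.8 TPM) were also the highest. The Tom+ sample of tumor #2 had 19.1, 0.426 and 48.4 TPM. A few genes carried most of each sum, and others went the other way. In Tom- cells of tumor #2 Pecam1 gave 49.7 TPM and Lyz2 1.41 TPM of their sums. Acta2 was at 0.103 TPM there, against 15.7 TPM in Tom- cells of tumor #1. Cd3d was highest in Tom- cells of tumor #2 (7.77 TPM), while Lck, Thy1, Cd3g and Cd8a were highest in its Tom+ cells. Sums of NK cell, erythroid and platelet markers were highest in other libraries. The cells had been sorted for B220 and IgM, and the part of other cell types in the Limk1 value was not tested. Limk2 made up 91.0% and 91.2% of the summed Limk TPM in tumor #1 and 80.7% and 96.0% in tumor #2.

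The promoters of the LIM kinases, shown in the same form, lie at chr5:134688591-134688840 (Limk1, minus strand) and chr11:3409239-3409488 (Limk2, minus strand).
Limk1: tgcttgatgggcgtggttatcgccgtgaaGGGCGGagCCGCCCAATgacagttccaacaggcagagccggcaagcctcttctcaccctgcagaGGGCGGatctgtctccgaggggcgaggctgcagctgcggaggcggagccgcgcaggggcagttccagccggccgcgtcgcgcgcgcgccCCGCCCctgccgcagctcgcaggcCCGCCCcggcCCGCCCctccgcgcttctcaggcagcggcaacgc
Limk2: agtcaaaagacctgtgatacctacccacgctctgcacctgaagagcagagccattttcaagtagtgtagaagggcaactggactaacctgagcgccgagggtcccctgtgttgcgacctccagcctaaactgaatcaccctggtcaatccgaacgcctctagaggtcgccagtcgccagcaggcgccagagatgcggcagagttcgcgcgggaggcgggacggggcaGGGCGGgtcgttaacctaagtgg
The Limk1 window held 6 GC boxes and 1 CCAAT box, which overlaps a GC box, at a GC content of 73.6%. The Limk2 window held 1 GC box and no CCAAT box at 59.6%, and neither held an E-box or a TATA box. Among the 7 pathway genes with a window, 6 held a GC box in the window nearest the gene start, Cfl1 being the exception. A CCAAT box was in 6 of these windows, with Limk2 the exception. The shares of all windows, 32.7% and 33.8%, also count windows at farther starts of a gene, so the units differ. Farther windows of Nck1, Limk1 and Limk2 included ones without a GC box.

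Cofilin, the end point of the pathway, was abundant in all libraries. Cfl1 (ENSMUSG00000056201, chr19:5490455-5495201, plus strand) measured 938 (Tom-) and 931 TPM (Tom+) in tumor #1, against 691 and 578 TPM in tumor #2. It was level in tumor #1, where the difference of -0.010 turned to 0.0043 after trimmed-mean scaling and 0.046 after quantile normalization, and in tumor #2 the difference was -0.26. The log2 fold change was -0.13 (SE 0.13, 95% interval -0.53 to 0.26, adjusted p = 0.936 from limma). Together with its relatives Cfl2 and Dstn, Cfl1 formed a steady part of the cofilin family, with 94.7% and 94.1% of the summed TPM in tumor #1 and 94.2% and 94.8% in tumor #2.

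Some pathway genes share sequence with other annotated genes. Of the 4 processed pseudogenes of Cfl1 in the annotation, Gm6180 was listed at 5.65 (Tom-) and 10.6 TPM (Tom+) in tumor #1, against 1.99 and 20.3 TPM in tumor #2. Gm44227 measured 8.87 and 23.4 TPM in tumor #1, against 26.0 and 0 TPM in tumor #2, and Gm14933 and Gm8682 were listed at 0. These copies took between 1.53% and 3.90% of Cfl1 plus copies, and with them the log2 fold change of Cfl1 was -0.12. In tumor #2 Tom- cells the sum was 719 TPM, above Rac2 at 715 TPM, whereas Cfl1 alone was below it. Gm6226, a copy of Nck2, was listed at 0.0974 TPM in Tom- cells of tumor #1 and at 0 elsewhere, and both copies of Nck1 at 0 in all libraries. Adding the copies thus changed only the Nck2 value of that library, to 7.33 TPM. Whether reads from a copy were assigned to Nck1 or Nck2 cannot be seen from these values. Rac1 overlaps Daglb on the opposite strand, and 50.1% of the distinct 60-base words of its annotated transcripts also occur in Daglb on one strand or the other. Daglb was between 2.29 and 5.27 TPM. Of the 2905 such words of Cfl1, 465 also occur in other genes. Snx32, between 0.314 and 1.52 TPM, holds 353 of them. How the quantification divided reads between these genes is not known.

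The tumors were then compared with each other. Since each is 1 mouse, no test of this difference was made, and a gene was called when tumor #2 differed more than 2-fold from tumor #1 in both Tom- and Tom+ cells. By this rule 14.9% of all genes tested were called (3.10% lower and 11.8% higher in tumor #2) and 0 of the 9 pathway genes. Tumor #2 was higher by a median of 0.23 and 0.19 on the log2 scale in Tom- and Tom+ cells over all genes, which became 0.00 and -0.00056 with trimmed-mean scaling. Nck2 came closest, with differences of -1.91 in Tom- and -0.76 in Tom+ cells, and it was called when the pseudocount was 0.1 or 0.5 or the libraries were quantile normalized. In these settings 2228, 1975 and 1439 of all 11339 genes were called, against 1695 in the main one. Both libraries of tumor #2 lay below both of tumor #1 for Nck2, Cfl1 and Rac1, 3 of the 9 genes (33.3%), which was the case for 23.7% of all genes. Cfl1 was at -0.44 and -0.69 and Rac1 at -0.37 and -0.31 in Tom- and Tom+ cells, and their sign was the same under each scaling. Both libraries of tumor #2 lay above both of tumor #1 for Limk2 (0.66 and 0.36), Pak2 (0.31 and 0.62) and Nck1 (0.15 and 0.38), again 33.3%, where 44.8% of all genes did so. The difference of Pak2 in Tom- cells shrank to 0.061 after trimmed-mean scaling and 0.086 after quantile normalization, and that of Limk2 in Tom+ cells to 0.14 and 0.19. For Nck1 the sign in Tom- cells turned to -0.088 (trimmed-mean) and -0.18 (quantile). Limk1 was higher in Tom- cells of tumor #2 (1.68) and lower in its Tom+ cells (-0.64).

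**Figure D4:**
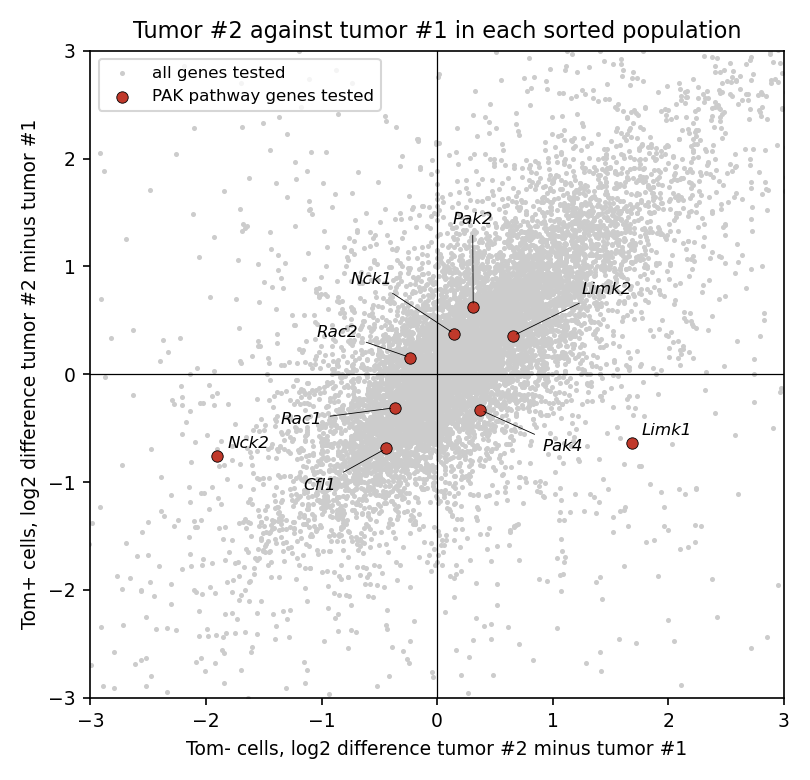
Difference between tumor #2 and tumor #1 on the log2(TPM + 1) scale in Tom- cells (x axis) and Tom+ cells (y axis) for the 9 PAK pathway genes tested (red) and all 11339 genes tested (grey, with 483 genes outside the axes). All genes spread along the diagonal, Nck2 lies at -1.91 and -0.76, and Limk1 leaves the diagonal at 1.68 and -0.64.

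The pathway was widened to 10 lists of 124 genes, written from general knowledge, which include the 10 genes above. Of these, 106 genes were tested, and 0 had an adjusted p-value below 0.05 from limma. Before adjustment, 4 genes had a p-value below 0.05 and were lower in Tom+ cells and 0 were higher, where 2.64% of all genes were lower and 2.04% higher. Tom+ values lay below Tom- values in both tumors for 44 listed genes (41.5%) and above them for 16 (15.1%), beside 29.5% and 21.6% of all genes. With rescaling over protein-coding genes outside the immunoglobulin and mitochondrial genes, 36 of 108 tested genes (33.3%) were lower and 22 (20.4%) higher in both tumors, where all genes were at 23.5% and 27.3%. Trimmed-mean scaling left 38 of 106 genes (35.85%) lower and 17 higher in both tumors, where all genes were at 25.4% and 25.5%. Quantile normalization left 35 (33.02%) lower and 16 (15.1%) higher, where all genes were at 28.25% and 22.79%. Of these scalings, quantile normalization brought the share of lower genes closest to that of all genes. The median log2 fold change of the listed genes was -0.078, and that of all genes tested was -0.033.

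The 4 listed genes with the smallest p-values act in adaptor, GTPase and myosin functions. Myh9, the heavy chain of nonmuscle myosin II, measured 130 (Tom-) and 94.5 TPM (Tom+) in tumor #1, against 116 and 75.1 TPM in tumor #2 (fold change on the log2 scale -0.53, SE 0.13, unadjusted p = 0.0250, adjusted p = 0.936 from limma). Myl12b, a regulatory light chain of the same motor, was at 121 and 91.3 TPM and at 146 and 81.6 TPM (-0.62, SE 0.17, unadjusted p = 0.0336). Grb2, an adaptor that links receptors to Ras activation, measured 85.3 and 63.6 TPM in tumor #1, against 95.2 and 70.2 TPM in tumor #2 (-0.43, SE 0.13, unadjusted p = 0.0421). Arhgap15, which inactivates Rac, was at 35.0 and 20.8 TPM and at 39.8 and 30.2 TPM (-0.56, SE 0.18, unadjusted p = 0.0459). All of them had an adjusted p-value of 0.936.

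In the lists of actin-binding and contractile proteins 0 genes were past the adjusted threshold, and their counts are to be read beside all genes tested, of which 29.5% were lower and 21.6% higher in Tom+ cells of both tumors (23.5% and 27.3% with the protein-coding rescaling). Of 11 tested genes of cofilin and its cofactors 7 were lower and 0 higher in both tumors (median log2 fold change -0.21). Coro1c, an actin-binding coronin, measured 332 and 330 TPM in tumor #1, against 86.5 and 336 TPM in tumor #2, and Twf1, which binds actin monomers, at 55.7 and 64.1 TPM and at 118 and 28.0 TPM. Coro1c was thus low and Twf1 high in Tom- cells of tumor #2, the library in which Limk1 was high. Of 6 tested genes of myosin II and its regulators 4 were lower and 0 higher in both tumors (median -0.20). Of 18 tested genes of WASP, WAVE and the Arp2/3 complex, which nucleates branched actin, 10 were lower and 2 higher (median -0.085). Cyfip1, a WAVE complex subunit, measured 8.36 and 4.05 TPM in tumor #1, against 19.8 and 16.2 TPM in tumor #2, and Hcls1, a cortactin relative of blood cells, at 70.3 and 58.3 TPM and at 85.3 and 61.7 TPM. Of 20 tested genes of actin, its monomer-binding and filament proteins 8 were lower and 2 higher (median -0.14), with the largest mean differences in Pfn2 and Capzb. Pfn2, a profilin, went in opposite directions, with 0.193 and 0.533 TPM in tumor #1, against 19.6 and 6.23 TPM in tumor #2, and its mean log2 fold change was -0.57 (SE 0.56). Capzb, a capping protein subunit, was at -0.30 (SE 0.18). With the protein-coding rescaling 6 genes of cofilin and its cofactors were lower and 1 higher in both tumors. For myosin II these counts were 4 and 0, for WASP, WAVE and Arp2/3 9 and 2, and for actin and its binding proteins 6 and 3.

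The lists of regulators closer to the membrane are given beside the same shares of all genes, 29.5% lower and 21.6% higher in both tumors. Among 8 tested adaptors 4 were lower and 0 higher in both tumors (median log2 fold change -0.19), and among 9 tested inhibitors of GTPases and PAK 5 were lower and 2 higher (-0.063), with Nisch, which binds and inhibits PAK1, at 0.34 (SE 0.15). Among 15 tested exchange factors, which load GTPases with GTP, 2 were lower and 5 higher in both tumors (0.011), with Def6 at 0.31 (SE 0.19) and Swap70 at -0.30 (SE 0.14). Among 10 tested LIM and cofilin kinases and phosphatases 1 was lower and 2 higher in both tumors (-0.021), with Tesk2, another kinase of cofilin, at -0.54 (SE 0.29) beside Limk1. Only 2 of the 6 Pak genes were tested.

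**Figure D5:**
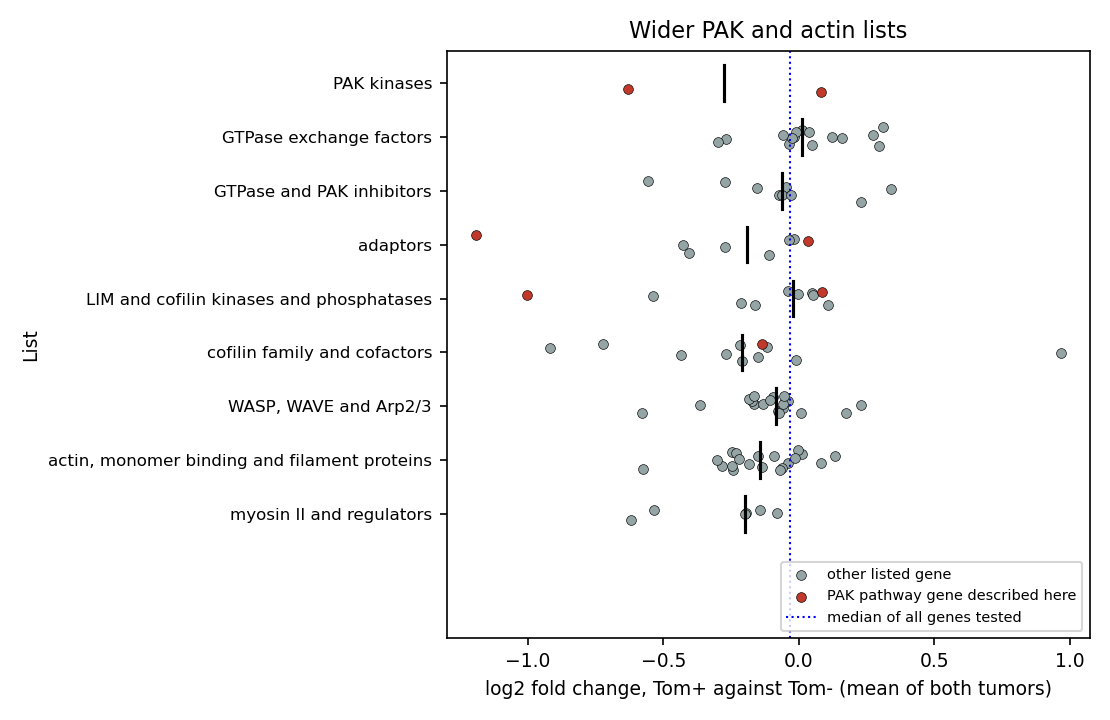
Log2 fold change of Tom+ against Tom- cells, as the mean of both tumors, for the 99 tested genes of 9 of the 10 wider lists (rows). Points are genes (red, PAK pathway genes described above), black bars are list medians, and the dotted line is the median of all genes tested (-0.033). Nck2 (-1.19) and Limk1 (-1.002) lie farthest to the left and Coro1c (0.97) farthest to the right.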

How the data were processed

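Libraries were made from B220+ IgM+ Tom+ and Tom- splenocytes of 2 mice. Per the methods, single reads were trimmed with Cutadapt and quantified against GRCm38 mouse transcripts with Salmon (Salmon 1.9 and CASAVA 1.8 per the submitters' processing notes), and the authors deposited TPM per gene for 4 libraries. The step from transcripts to genes is not given in the sources used here, and the depth is unknown. The authors' count-based paired test was not used because TPM are not counts.

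Identifiers were named with GENCODE M21 on GRCm38, which held 34652 of 34866. Genes with at least 1 TPM in at least 2 libraries were fitted as log2(TPM + 1) with limma 3.58.1 in R 4.3.3, using terms for tumor and Tom status and a trended variance prior (degrees of freedom 2.21 for the prior and 1 for the residual), and p-values were adjusted by Benjamini-Hochberg. The tumor is a block because both populations were sorted from 1 mouse, and their deviations from the group means correlated across genes (Pearson r = 0.626, genes not being independent replicates). With 2 mice, p-values rest on 2 pairs. The fit was tested on simulated data. Copies were transcripts of other genes aligned by blastn 2.17.0 at 90% identity or more over at least 200 bases and 80% of the copy. Promoter windows and motif searches used the RefSeq table of GRCm38.p6, which holds windows for 7 of the 10 genes and none for Rac1, Rac2 and Pak2. Python 3.11.15 with pandas 2.3.3, numpy 2.4.6 and matplotlib 3.10.9 was used for tables and plots.

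The genes and lists were chosen with earlier results of these data known. Named were the 10 pathway genes and, in each wider list, the 2 genes with the largest absolute change. Myh9, Myl12b, Grb2 and Arhgap15 are among these. Of the 10 wider lists, 1 is not reported here by itself. Daglb, Snx32 and the pseudogenes were named after their values were seen. Alternatives were no filter, pseudocounts of 0.1 and 0.5, the fit without the block, a mean of at least 5 TPM, trimmed-mean scaling, quantile normalization, rescaling over protein-coding genes, an untrended prior, each tumor left out and the sum with annotated copies.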

Additional observations from a re-analysis of the deposited data

How the results depend on the processing

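The direction of the mean log2 fold change of the 9 tested genes was the same under each alternative that used both tumors and tested the gene. Only the pseudocounts, the scalings and the sum with annotated copies could have changed it. The filters, the fit without the block and the untrended prior leave the fold change itself as it is. In limma 0 genes of the whole table had an adjusted p-value below 0.05 under any alternative with both tumors, with 140 to 638 genes at an unadjusted p-value below 0.05. The lowest of these counts, 140 against 530, came without the tumor block, where 0 of the listed genes remained at an unadjusted p-value below 0.05 instead of 4, and without the variance trend 1 did. Nck2 was below 0.05 unadjusted with pseudocounts of 0.1 and 0.5, with the protein-coding rescaling and without the variance trend, and at 0.217 without the block.

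Leaving out a tumor leaves 1 pair and no test. The log2 fold change then ranged from -0.072 to 0.24 for Pak2, from -0.35 to 0.035 for Rac2, from -0.079 to 0.15 for Nck1, from -2.16 to 0.16 for Limk1 and from -0.063 to 0.24 for Limk2, each of which turned in sign. For Nck2 it was -1.77 in tumor #1 and -0.62 in tumor #2. With a mean of at least 5 TPM 1 pathway gene instead of 3 was lower in both tumors, because Nck2 and Pak4 were then not tested, and with the protein-coding rescaling 2 instead of 1 were higher. Between the tumors 1 pathway gene, Nck2, instead of 0 passed 2-fold with pseudocounts of 0.1 or 0.5 and with quantile normalization. Of all 11339 genes 2228, 1975 and 1439 passed in these settings. Of the counts for single lists under the alternative settings, 16 of 140 moved by more than 1.5 times or from or to 0. The pseudocounts are among these settings and could not move a count, since they leave the sign in each tumor as it is. The share of moved counts is therefore higher among the other settings. TPM without depth gives no limit of detection, which touches Pak1, Pak4 and the lower values of Nck2 most.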
